A study of Mus musculus with 24 samples.

Results

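The sites described here are stretches of open chromatin that lie away from gene ends and that, in wild-type mouse blood progenitors, carried both the transcription factor PU.1 and the histone mark H3K4me1. They were found by merging the ATAC-seq peaks of the 2 Utx wild-type empty-vector libraries of set B and keeping autosomal regions with a peak in both. A region was then required to lie more than 1 kb from either end of any protein-coding RefSeq gene span in build mm10. It also had to share at least 1 base with a peak in all 3 wild-type PU.1 libraries and in both wild-type H3K4me1 libraries. The rule found 14724 such sites, which was 47.5% of the 30975 distal open sites and 34.4% of all 42841 autosomal regions open in both libraries. The remaining distal sites fell into 3 classes. The 3230 PU.1 only sites had PU.1 in all 3 libraries but not H3K4me1 in both. The 5803 H3K4me1 only sites had H3K4me1 in both but not PU.1 in all 3. The 7218 sites called neither met neither condition. Sites of these classes could thus hold a missing mark in part of its libraries. The second wild-type H3K4me1 library held 52.7% of PU.1 only sites and 22.4% of sites with neither, and the first 4.21% and 3.92%. On average the wild-type PU.1 libraries held 17.9% of H3K4me1 only sites and 8.73% of sites with neither. A further 11866 open regions lay at gene ends.

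The study profiled lineage-negative bone marrow progenitors (HSPCs) of C57BL/6 mice with an intact (Utx WT) or deleted (Utx KO) Utx gene, and asked how enhancers and chromatin remodelling depend on it. ChIP-seq used cells fresh from marrow, per the labels: H3K4me1 in 2 Utx WT and 2 Utx KO samples, and PU.1 in 3 of each. ATAC-seq used cells whose genotype carried Cas9, in 2 sets with 2 libraries a group: set B held Utx WT and Utx KO cells, each with empty vector or with a guide RNA (gRNA) against Smarca4 (guide 2), and set A held Utx WT cells with empty vector or with a gRNA against Chd4 (guide 1). For set A the labels describe 7 days in semi-solid medium, 5 days in liquid culture and ATAC-seq at 6 days after editing, in a text that speaks of Brg1 editing, while for set B no culture is given. Every ATAC group, controls included, carried Cas9, each target was edited with 1 guide, and the labels give neither the share of edited cells nor the promoter behind Cas9. Whether same-group samples came from separate animals or cultures is not stated, so the p-values below measure the spread between these samples, which may be technical.

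PU.1, encoded by Spi1, is an ETS family factor that binds purine-rich DNA with a GGAA core and opens enhancers in myeloid and lymphoid cells. H3K4me1 is laid down at enhancers by the methyltransferases Kmt2c and Kmt2d, which sit in a complex with Utx, a histone demethylase encoded by Kdm6a on the X chromosome. Smarca4 (Brg1) is the ATPase of the BAF remodelling complex, which moves nucleosomes at enhancers, and Chd4 is the ATPase of NuRD, a complex that joins remodelling to histone deacetylation. An ATAC peak marks DNA that a transposase can reach. A site is called held by a library when a peak of that library shares at least 1 base with it, and lost when all reference libraries hold it and no perturbed library does.

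Although the sites avoid the ends of protein-coding genes, 1170 of them (7.95%) touched a RefSeq start window, the stretch from 250 bases before to 50 bases after an annotated start. Such starts belong to long non-coding RNAs or to internal starts of coding genes. The share was 6.41% of PU.1 only sites, 4.29% of H3K4me1 only sites and 1.27% of sites with neither. Of 30804 windows, 958 lay wholly inside 845 of the sites, 647 of them of coding genes and 311 of lncRNAs. These windows give the sequences that can be shown here, from RefSeq on GRCm38.p6, the assembly that mm10 names. They were chosen after their values were seen. They describe this minority of the sites, and sequence around the other sites was not analysed here.

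A set of 6 short words were searched on both strands in the 300-base windows: GAGGAAGT for PU.1, TGTGGT for RUNX factors, AGATAA for GATA factors, TGANTCA for AP-1, TTGCNNAA for C/EBP and CACGTG for E-box factors. The PU.1 word was in 5.43% of the 958 windows inside the sites, against 3.26% of all 29396 autosomal windows, 3.05% of the 8025 windows inside open gene ends and 2.35% of the 341 inside other distal open sites. The GATA word was in 8.56%, 11.2%, 4.50% and 6.16% of the same sets, and the AP-1 word in 8.14%, 7.95%, 3.88% and 9.38%. The RUNX word was in 15.8%, 16.8%, 11.2% and 12.02%, the C/EBP word in 10.2%, 10.9%, 6.68% and 6.74%, and the E-box word in 9.60%, 7.07%, 11.2% and 6.16%. Median GC content of these sets was 60%, 53%, 63.7% and 61.7%, so they differ in base composition too. No test was made of these shares, and a word in a window shows neither binding nor its absence.

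A first set of 4 stretches shows windows with the PU.1 word and a partner word inside sites held by all 22 libraries with a peak list, and these 4 are all that have both words in the stretch. Each is 121 bases long, lies wholly upstream of the start, is read 5′ to 3′ on the strand of its gene, and has the searched words in capitals. Fgd3 (chr13:49309209-49309329, minus strand), the lncRNA Gm35891 (chr3:51128940-51129060, minus), Gpr55 (a G protein-coupled receptor; chr1:85961096-85961216, minus) and Rfc1 (the large subunit of the clamp loader of DNA replication; chr5:65335765-65335885, minus) give these.
Fgd3: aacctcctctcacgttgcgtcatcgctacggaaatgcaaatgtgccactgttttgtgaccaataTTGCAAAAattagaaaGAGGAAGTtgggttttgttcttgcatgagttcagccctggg
Gm35891: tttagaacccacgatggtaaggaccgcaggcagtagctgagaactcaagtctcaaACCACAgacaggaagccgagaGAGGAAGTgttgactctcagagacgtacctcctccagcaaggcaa
Gpr55: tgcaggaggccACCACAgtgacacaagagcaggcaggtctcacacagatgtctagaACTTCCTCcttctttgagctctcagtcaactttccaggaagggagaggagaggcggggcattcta
Rfc1: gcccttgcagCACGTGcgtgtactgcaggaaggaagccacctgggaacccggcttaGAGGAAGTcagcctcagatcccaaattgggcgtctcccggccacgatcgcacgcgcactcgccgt

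A second set comes from sites that both wild-type empty-vector libraries held and both Utx KO empty-vector libraries lacked. Of these, 18 wholly held a window, and the 13 with a searched word upstream of the start are all shown. The RUNX word was in 6 of the 13 stretches, the AP-1 word in 4 and the PU.1 word in 3. The GATA and C/EBP words were in 1 each and the E-box word in none. The other 5 windows had no searched word upstream and were left out, and each stretch was placed around its first word. These counts therefore cannot be set against the window shares above and show no enrichment. They are Mirc35hg (a lncRNA near Nrf1; chr6:30174183-30174303, minus), Rnf144b (a RING-type ubiquitin ligase; chr13:47193815-47193935, plus), Fam131a (chr16:20694870-20694990, plus), Gm34418 (a lncRNA; chr11:117483053-117483173, minus), Gm46528 (a lncRNA; chr15:84896824-84896944, minus), Asb2 (a substrate receptor of a ubiquitin ligase; chr12:103338428-103338548, minus), Mirt1 (a lncRNA; chr19:53464926-53465046, minus), Tiam1 (a Rac exchange factor; chr16:89974700-89974820, minus), Ablim1 (an actin-binding protein; chr19:57119154-57119274, minus), Dennd2d (chr3:106485830-106485950, plus) and the lncRNAs Gm16341 (chr1:86301771-86301891, minus), Gm33564 (chr9:106260746-106260866, plus) and Gm41235 (chr14:103048741-103048861, minus). In these, Fam131a, Gm34418 and Gm46528 carry the PU.1 word, Ablim1, Asb2, Dennd2d and Gm41235 the RUNX word, Mirt1 and Gm16341 the RUNX and AP-1 words, Mirc35hg and Tiam1 the AP-1 word, Gm33564 the GATA word and Rnf144b the C/EBP word. Of the 10 ATAC libraries outside the rule, 7 held the sites of Mirt1 and Gm33564 and 6 that of Rnf144b. The sites of Mirc35hg, Dennd2d and Gm41235 were held by 5, and those of Ablim1 and Gm46528 by 4. Those of Asb2 and Gm16341 were held by 2, and those of Fam131a, Gm34418 and Tiam1 by 1, so Utx WT libraries often lacked them too. Only the sites of Mirc35hg and Rnf144b were open in 6 Utx WT and none of 4 Utx KO libraries.
Mirc35hg: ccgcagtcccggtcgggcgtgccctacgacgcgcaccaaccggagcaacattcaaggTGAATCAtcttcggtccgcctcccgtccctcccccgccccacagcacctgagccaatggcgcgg
Rnf144b: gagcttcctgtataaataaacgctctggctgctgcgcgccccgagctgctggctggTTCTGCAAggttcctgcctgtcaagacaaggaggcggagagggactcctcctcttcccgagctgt
Fam131a: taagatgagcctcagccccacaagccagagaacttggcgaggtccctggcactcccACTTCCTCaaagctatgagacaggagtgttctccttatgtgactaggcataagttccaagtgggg
Gm34418: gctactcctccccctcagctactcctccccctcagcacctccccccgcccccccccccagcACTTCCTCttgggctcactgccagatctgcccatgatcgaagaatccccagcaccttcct
Gm46528: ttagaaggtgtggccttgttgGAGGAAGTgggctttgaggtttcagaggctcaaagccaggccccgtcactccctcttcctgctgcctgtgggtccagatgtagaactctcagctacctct
Asb2: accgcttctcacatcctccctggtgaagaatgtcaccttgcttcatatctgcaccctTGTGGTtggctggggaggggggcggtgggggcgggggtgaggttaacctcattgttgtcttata
Mirt1: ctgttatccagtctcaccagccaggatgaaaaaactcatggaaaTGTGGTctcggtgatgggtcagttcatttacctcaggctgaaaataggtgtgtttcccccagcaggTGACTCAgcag
Tiam1: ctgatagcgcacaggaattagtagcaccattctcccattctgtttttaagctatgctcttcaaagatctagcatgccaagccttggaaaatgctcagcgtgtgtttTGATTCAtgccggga
Ablim1: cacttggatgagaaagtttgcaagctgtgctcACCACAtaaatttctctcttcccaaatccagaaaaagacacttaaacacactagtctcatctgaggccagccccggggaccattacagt
Dennd2d: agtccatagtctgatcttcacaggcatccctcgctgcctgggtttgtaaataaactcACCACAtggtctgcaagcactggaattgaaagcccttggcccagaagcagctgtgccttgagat
Gm16341: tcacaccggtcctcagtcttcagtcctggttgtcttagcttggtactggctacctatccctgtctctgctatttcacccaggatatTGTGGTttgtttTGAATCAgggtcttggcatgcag
Gm33564: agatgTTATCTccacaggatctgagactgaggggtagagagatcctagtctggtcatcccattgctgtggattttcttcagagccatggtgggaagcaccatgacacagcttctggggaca
Gm41235: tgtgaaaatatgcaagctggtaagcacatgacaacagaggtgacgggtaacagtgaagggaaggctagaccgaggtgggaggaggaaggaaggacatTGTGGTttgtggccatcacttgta

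The sites also covered 17 of the 1005 miRNA hairpins of the RefSeq table, in 15 sites. Both miR-132 and miR-212 lay in the same site on chr11:75172529-75174039 and share a seed, bases 2 to 8, given in capitals below. That site was held by all 10 ATAC-seq libraries and all 5 ChIP-seq libraries outside the rule, as was the site of let-7i (chr10:122985237-122986810) and that of miR-330 (chr7:19178455-19181698). The site of miR-33, inside the cholesterol regulator gene Srebf2 (chr15:82197343-82198804), was held by 8 of the 10 ATAC libraries, and that of miR-9 near the myeloid and neural factor gene Mef2c (chr13:83737550-83738910) by 6, and both by all 5 ChIP libraries.
miR-132-3p: uAACAGUCuacagccauggucg
miR-212-3p: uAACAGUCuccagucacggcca
let-7i-5p: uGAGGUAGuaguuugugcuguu
miR-330-3p: gCAAAGCAcagggccugcagaga
miR-33-5p: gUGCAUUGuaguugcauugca
miR-9-5p: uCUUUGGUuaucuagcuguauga

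In the libraries that chose them, the sites were wider than the other distal sites and their islands ranked higher. Their median width was 599 bp (quartiles 427 and 889), against 449 bp for PU.1 only, 488 bp for H3K4me1 only, 427 bp for neither and 1021 bp at gene ends. The rank of a site's PU.1 island, as a percentile within each wild-type list averaged over the lists, had a median of 83.2, against 60.5 for PU.1 only sites. The H3K4me1 rank had a median of 85.6, against 79.9 for H3K4me1 only sites. These values describe the selection and are not a result of it. The PU.1 islands sat close to the centre of the open region, with a median offset of 194, 212 and 213.5 bp in the 3 wild-type libraries, whose islands lie on a grid of 200 bp.

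Sites just inside and just outside the rule were as follows. The 648 sites up to 500 bp beyond the limit of 1 kb from a gene end were held at 80.9% ± 0.327 (SD, n = 2 libraries) in Utx KO empty vector and at 60.8% ± 11.1 with the Chd4 gRNA. The 707 open regions with both marks up to 500 bp short of that limit were held at 79.9% ± 0.600 and 58.3% ± 11.1. Distal sites with PU.1 in only 2 of 3 libraries (1005, with H3K4me1 in both) were held at 73.1% ± 1.90 and 33.3% ± 14.001, and those with H3K4me1 in 1 of 2 (1837, with PU.1 in 3) at 79.7% ± 0.423 and 46.6% ± 14.4.

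Most of the sites lay in gene bodies and they were clustered. Of the 14724 sites, 9030 (61.3%) lay in a protein-coding gene span, and the 5694 outside had a median distance of 15767 bp to the nearest span. The median distance to a gene end over all sites was 14566 bp. Another site of the class lay within 10 kb of 52.8% of them, against 11.5% for PU.1 only, 32.4% for H3K4me1 only and 26.3% for neither, classes that hold fewer sites. The centres of 14508 sites fell in a merged wild-type H3K4me1 island. Of 55861 such islands, 10193 held at least 1 site, with a median width of 7199 bp against 3199 bp for islands without any. Most held 1 site (7716 islands), while 219 islands held 5 or more and 1409 sites between them.

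The 5 islands with 12 or more sites lay over 3 ETS family genes and 3 others. An island over Etv6, an ETS family repressor gene (chr6:134036801-134231799), held 16 sites. Islands over Cmip (chr8:117258201-117375599) and over Fli1, an ETS activator of the megakaryocyte lineage (chr9:32466601-32546999), held 14 each. Erg, an ETS factor of stem cells (chr16:95412201-95467799), and the neighbours Arap1 and Stard10 (chr7:101338601-101392399) had 12 each. By chromosome, the sites made up from 40.9% of distal open sites on chromosome 3 to 54.6% on chromosome 19.

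The peak lists differ in length, which moves every share below. The ATAC lists held 50845 and 50927 peaks in the reference libraries and from 24833 to 48687 in the other 10, and carry no counts, so sequencing depth is unknown. The second Utx KO library with the Smarca4 gRNA (29930 peaks against 35975) and the second library with the Chd4 gRNA (24833 against 34429) had the shortest lists of the series. PU.1 lists held 137850 to 171535 islands and H3K4me1 lists 43706 to 54654.

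Outside the libraries that chose them, the sites were held at very high shares by PU.1 and H3K4me1 in Utx KO and at lower and more varied shares as open chromatin. The 3 Utx KO PU.1 libraries held 97.7%, 94.4% and 97.1% of the sites (96.4% ± 1.75, SD, n = 3), and the 2 Utx KO H3K4me1 libraries 91.2% and 95.0% (93.1% ± 2.73, n = 2). Utx KO cells with empty vector held 78.1% and 79.0% as open (78.6% ± 0.672, n = 2), and Utx WT cells with the Smarca4 gRNA 88.0% and 90.5% (89.3% ± 1.74). With both, the share was 72.7% and 58.2% (65.5% ± 10.3). The set A empty-vector libraries held 81.1% and 73.6% (77.3% ± 5.25) and the Chd4 gRNA libraries 69.2% and 51.1% (60.2% ± 12.8). ChIP and ATAC lists differ in length and kind of peak. The ChIP cells were fresh, while the ATAC cells carried Cas9 and a culture is described for set A only. The 2 assays are thus set side by side only as values.

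**Figure D1:**
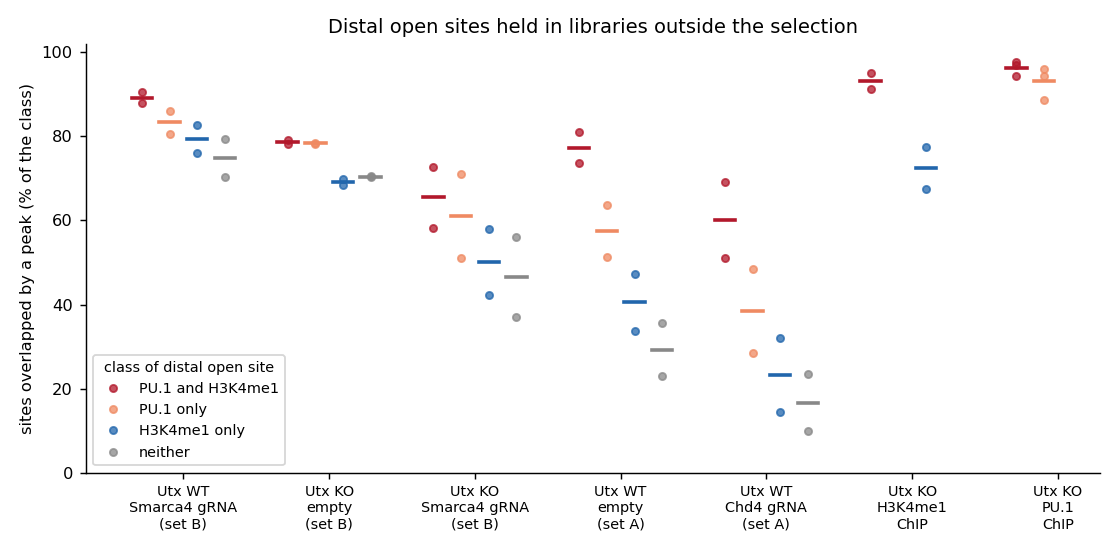
Share of each class of distal open site overlapped by a peak (% of the class, vertical axis) in each group of libraries outside the selection (horizontal axis). Points are libraries and bars are group means, and ChIP groups show only the classes chosen by that mark. The sites with PU.1 and H3K4me1 lie highest in the ATAC groups of set A and level with the PU.1 only sites in Utx KO empty vector (78.6% against 78.3%).

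A test over the 10 ATAC libraries outside the rule asked whether both marks in all their wild-type lists went with steadier openness. The class difference was taken within each library, and the other classes could hold a missing mark in part of its lists. The sites were held 21.7 points more often than H3K4me1 only sites (SD 13.4, 10 of 10 libraries, exact permutation p = 0.00195, the smallest that 10 pairs can give, and 0.00293 after Benjamini-Hochberg adjustment over 3 classes). Against sites with neither the difference was 26.6 points (SD 17.1, 10 of 10 libraries, the same exact permutation p). Against PU.1 only sites it was 10.4 points (SD 9.37, from -0.176 to 22.5, higher in 9 of 10 libraries, exact permutation p = 0.00391, also after adjustment). The libraries stand for 5 conditions, so this tests a direction over libraries and not over replicates of a condition.

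Within sets the differences were unequal in size. In the 6 libraries of set B, the sites exceeded PU.1 only, H3K4me1 only and neither by means of 3.49, 11.5 and 13.8 points, and in the 4 of set A by 20.8, 36.9 and 45.8 points. Width moved with these classes. When they were compared within 5 strata of width, the excess over H3K4me1 only was 15.5 points and over neither 17.1 points (exact permutation p = 0.00195 for each), but over PU.1 only it was 1.77 points (exact permutation p = 0.516). The PU.1 only difference also lost the threshold of 0.05 with 50% cover of the region (1.99 points), in the upper 50% of each list (4.43) and with lists of equal length (6.52), and was 15.8 points without the first H3K4me1 wild-type library.

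Openness lost in Utx KO cells with empty vector covered 2531 of the 14724 sites (17.2%), near the 19.6 percent called over all distal open sites. Both Utx KO libraries held 10943, and 1 of them held 1250. The lost share was 15.8% of PU.1 only, 24.5% of H3K4me1 only, 22.4% of neither and 4.85% at gene ends. Since the wild-type reference chose the sites, they could only be kept or lost here, and this is a description with no test. With lists of equal length the lost share was 10.4%. The lost sites were narrower, with a median of 394 bp against 693 bp for the 10943 kept, while their median PU.1 rank (81.0 against 83.8) and H3K4me1 rank (87.8 against 85.0) were close.

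The Smarca4 gRNA in Utx WT cells left 930 of 14724 sites lost (6.32%, beside 10.2 percent of all distal open sites), with 12489 held by both libraries. This count too has the reference in the rule and rests on both libraries of each group, since leaving out any 1 of the 4 gave 9.52% to 11.98%, and lists of equal length gave 3.63%. The same gRNA in Utx KO and the Chd4 gRNA gave higher shares with the full lists (7.57% and 8.69%). At equal length, where the sites were chosen again, they gave lower ones (2.83% and 2.63%). The order of the 3 thus turned.

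In Utx KO cells, where neither group entered the rule, the mean share of sites held was 65.5% with the Smarca4 gRNA against 78.6% with empty vector, a difference of -13.1 points with groups that did not overlap. Other distal sites moved by -20.9 points. All 2 against 2 comparisons have a smallest exact permutation p of 0.333, which this one gave, so no threshold could be passed. Of the 10943 sites open in both Utx KO empty-vector libraries, 828 were open in neither Smarca4 gRNA library (7.57%, beside 11.6 percent of all distal open sites). Of the 2531 sites that Utx KO had lost, 14 were open in both libraries with the gRNA (0.553%, beside 0.855 percent). Without the first or the second Smarca4 gRNA library the difference was -20.3 or -5.83 points, and without the first the lost share was 22.8%. With lists of equal length these were -4.06 points and 2.83%.

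Among cells that all carried the Smarca4 gRNA, Utx KO held 65.5% of the sites against 89.3% in Utx WT, a difference of -23.8 points (exact permutation p = 0.333), beside -27.5 points for other distal sites. Here 2045 of 12489 sites open in both Utx WT libraries were lost (16.4%, beside 19.7 percent), and 15 of the 930 that the gRNA had closed in Utx WT were open in both Utx KO libraries (1.61%, beside 2.73 percent). Without the first Utx KO library with the gRNA the lost share was 32.2%, and at equal list length the difference was -10.9 points and the lost share 8.29%.

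Within set A the mean share held was 60.2% with the Chd4 gRNA against 77.3% with empty vector, a difference of -17.2 points (exact permutation p = 0.333), beside -15.6 points for other distal sites. It left 919 of 10573 sites lost (8.69%, beside 11.9 percent), and 9 of the 2522 sites closed in both set A empty-vector libraries were open in both Chd4 gRNA libraries (0.357%, beside 0.181 percent). The value differed at equal list length, where the sites were chosen again, and depended on single libraries. At equal length the difference was -0.674 points (exact permutation p = 1) and the lost share 2.63%, while without the first or the second Chd4 gRNA library the difference was -26.2 or -8.11 points, and the lost share was 30.04% without the first Chd4 gRNA library and 15.3% without the second empty-vector library of set A.

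Whether the sites moved differently from another class was asked in the 3 comparisons whose libraries did not enter the rule, where no test could pass the threshold, since 0.333 is the smallest exact permutation p. The comparisons of the Smarca4 gRNA in Utx KO and of Utx KO with the Smarca4 gRNA share 2 libraries, so they are not independent of each other. The change of the sites minus that of PU.1 only, H3K4me1 only and neither was 4.19, 5.95 and 10.9 points for the Smarca4 gRNA in Utx KO. For Utx KO with the Smarca4 gRNA it was -1.42, 5.44 and 4.64 points, and for the Chd4 gRNA 1.85, 0.216 and -4.62 points (adjusted exact permutation p from 0.75 to 1 over 9 tests).

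The control cells of the 2 sets also differed. Of the 14724 sites, 2522 were open in neither set A empty-vector library (17.1%, beside 35.7 percent of all distal open sites, and 62.4% of the class called neither). The share was 26.4% without the first library of set A. The sets differ in the culture text and in the tools named, and their parts in this difference cannot be told apart.

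Sites lost in separate comparisons overlapped to unequal degrees, counted only between comparisons that share no library. Of 12489 sites that could be lost in both, Utx KO closed 1156 with empty vector and 2045 with the Smarca4 gRNA, and 967 in both, 83.7% of the first list and 47.3% of the second. Of 10943 sites, the Smarca4 gRNA closed 154 in Utx WT and 828 in Utx KO, with 90 in both (58.4% and 10.9%). Of 10573 sites, 1253 closed in Utx KO and 919 with the Chd4 gRNA, with 233 in both (18.6% and 25.4%). The Smarca4 gRNA in Utx WT and the Chd4 gRNA shared 95 sites, 29.1% of 327 and 10.3% of 919, and the Smarca4 gRNA in Utx KO and the Chd4 gRNA shared 77, 18.3% of 420 and 13.6% of 566. In the same order, the shares lost of all sites testable in both were 9.26% and 16.4%, 1.41% and 7.57%, and 11.9% and 8.69%. For the Smarca4 gRNA and the Chd4 gRNA they were 3.09% and 8.69% (Utx WT), and 4.85% and 6.53% (Utx KO). Overlaps were not counted over all distal open sites, so whether they are particular to these sites is not known. Narrow sites were held less often in all 10 ATAC libraries outside the rule, and such overlaps are given without a test.

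Counted over libraries, 5073 sites (34.5%) were held by all 15 libraries outside the rule and 2 by none. In the 10 ATAC libraries alone, 5481 (37.2%) were open in all, against 20.3% of PU.1 only, 10.6% of H3K4me1 only and 6.57% of neither, and 297 (2.02%) were open in none, against 3.19%, 6.60% and 7.41%.

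**Figure D2:**
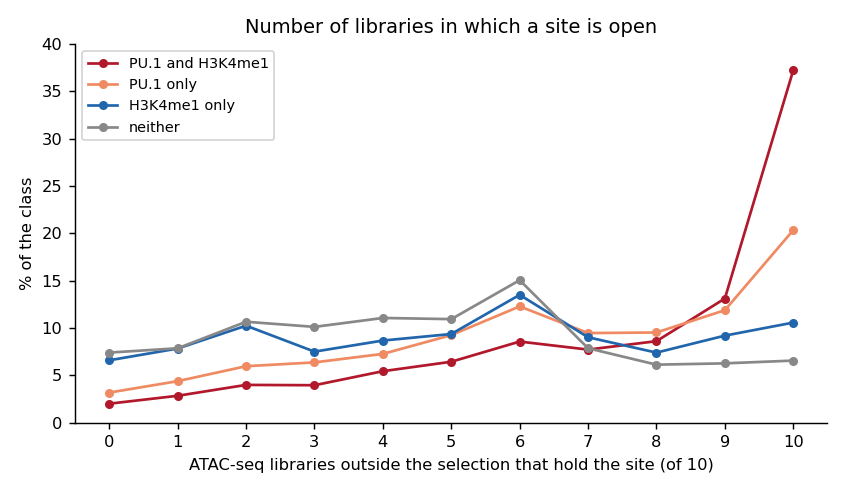
Share of each class of distal open site (%, vertical axis) by the number of the 10 ATAC-seq libraries outside the selection that hold it (horizontal axis). The sites with PU.1 and H3K4me1 peak at 10 libraries (37.2%), where the 3 other classes stand at 20.3%, 10.6% and 6.57%.

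Sites that differed by Utx genotype both with empty vector and with the Smarca4 gRNA were also counted. They were taken from the 9666 sites open in all 6 Utx WT ATAC libraries of both sets without the Chd4 gRNA. Of these, 549 (5.68%, beside 5.15 percent of distal open sites) were open in none of the 4 Utx KO libraries, and 7131 (73.8%) were open in all 4. The share was 3.95% for PU.1 only, 4.36% for H3K4me1 only and 3.56% for neither. The 549 sites had a median width of 461 bp against 813 bp for the 7131, with median PU.1 ranks of 88.2 and 87.1. The share was 8.56% with 50% cover of the region and 3.15% at equal list length.

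PU.1 and H3K4me1 were present in Utx KO at nearly all sites that had closed. At the 2531 sites closed in Utx KO, the 3 Utx KO PU.1 libraries held 96.4%, 92.7% and 95.8%, against 98.2%, 95.0% and 97.5% at the 10943 open in both libraries. The 2 Utx KO H3K4me1 libraries held 88.8% and 93.9%, against 91.9% and 95.4%. At the 549 sites closed in all 4 Utx KO libraries, PU.1 was held at 98.4%, 96.5% and 98.4% and H3K4me1 at 94.9% and 97.6%. At the 7131 open in all, these were 98.7%, 96.4% and 98.5%, and 94.9% and 97.5%. The ChIP and ATAC libraries are separate samples, so the same cells were not read by both, and an island shows presence and not its strength.

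**Figure D3:**
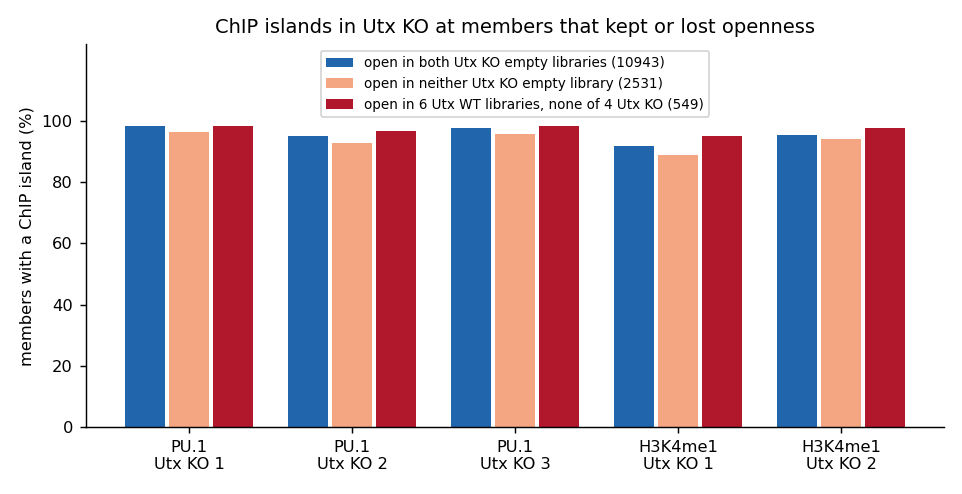
Share of sites with an island (%, vertical axis from 0) in each Utx KO ChIP library (horizontal axis), for sites open in both Utx KO empty-vector libraries (10943), in neither (2531), and open in 6 Utx WT but none of 4 Utx KO libraries (549). All 15 bars stand at 88.8% or above, and the 2531 closed sites lie below the 10943 open ones in each of the 5 libraries.

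The 2 marks themselves were lost at few sites, whose wild-type islands of the same mark ranked lower. Those ranks come from the lists that chose the sites and use the same mark, so they are given as a description. PU.1 was absent from all 3 Utx KO libraries at 153 sites (1.04%, beside 1.21 percent of distal sites with PU.1), whose median wild-type PU.1 rank was 35.3 against 84.7 for the 13724 with PU.1 in all 3. The lost share was 1.71%, 2.15% and 1.69% without the third wild-type, the first Utx KO or the third Utx KO library. H3K4me1 was absent from both Utx KO libraries at 532 sites (3.61%, beside 8.02 percent of distal sites with H3K4me1, and 19.2% of H3K4me1 only sites), with a median rank of 42.5 against 87.7. It was 6.20% without the first wild-type library, 8.82% without the second Utx KO library and 1.94% at equal list length. The lists shared 25 sites, 16.3% of the first and 4.70% of the second.

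At the 153 sites without PU.1 in Utx KO, Utx KO empty-vector cells were open at 64.1% and 60.1%, against 78.5% and 79.6% where all 3 libraries had PU.1. H3K4me1 was held at 64.7% and 82.4% of them. At the 532 sites without H3K4me1, openness in the same cells was 72.4% and 73.9%, against 78.6% and 79.6% where both libraries had the mark, and PU.1 was held at 92.1%, 79.3% and 88.2%. With the Chd4 gRNA, where Utx was intact, the same 532 sites were open at 42.3% and 20.5%, against 71.9% and 54.0%. Sites of low H3K4me1 rank were also less open in the control of that gRNA. Set A empty vector held 68.2% of the lowest and 82.9% of the highest 20% of all sites by that rank. Whether the gRNA had a part in the gap at the 532 sites was not tested.

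Among the sites, openness in the other libraries rose with the rank of the wild-type PU.1 island. The top 20% by PU.1 rank were held 18.5 points more often than the bottom 20% (SD 14.5, 10 of 10 libraries, exact permutation p = 0.00195, 0.00488 after adjustment over 5 tests). The means were 40.8% and 79.6% with the Chd4 gRNA, 61.7% and 91.8% with set A empty vector, and 76.5% and 81.6% in Utx KO empty vector. The difference was 34.4 points in set A (25.7 to 43.4, 4 libraries) and 7.85 points in set B (4.48 to 12.8, 6 libraries). Comparing the upper with the lower 50% within 5 bands of width, an alternative chosen after seeing the data, left 7.49 points (higher in 9 of 10 libraries, exact permutation p = 0.00586, 0.00977 after adjustment).

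The H3K4me1 island gave a smaller difference, 6.18 points (SD 7.37, 8 of 10 libraries, exact permutation p = 0.0332, 0.0415 after adjustment). It was 14.3 points in set A (12.5 to 16.9) and 0.745 points in set B (-2.28 to 3.87), so it did not hold within set B, and within 5 bands of width it was 0.50 points (exact permutation p = 0.75). It missed the threshold in 7 of the 17 fits that each leave out a library, with differences from 4.99 points.

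Width gave the steepest order of the 3. The widest 20% (median 1183 bp) were held 51.6 points more often than the narrowest 20% (294.5 bp; SD 13.8, 10 of 10 libraries, exact permutation p = 0.00195, 0.00488 after adjustment), by 54.9 points in set B and 46.7 in set A. In Utx KO with the Smarca4 gRNA, the means were 23.6% and 95.1%, and in Utx WT with the Smarca4 gRNA 61.5% and 99.9%. The difference was 28.3 points with lists of equal length and 37.2 points with 50% cover of the region (exact permutation p = 0.00195 for each). The widths come from the ATAC libraries that chose the sites, and an overlap of 1 base is easier for a wide region. A higher share at wide sites was therefore likely from the start, and these p-values are no support for a link. Width stands here in the place of a peak height that the peak lists do not give. In the ChIP libraries, PU.1 in Utx KO was held at 86.1% in the lowest and 99.7% in the highest 20% of wild-type PU.1 rank, and H3K4me1 at 78.8% and 99.2% by H3K4me1 rank, which use the ranks of the same mark and are given as a description.

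**Figure D4:**
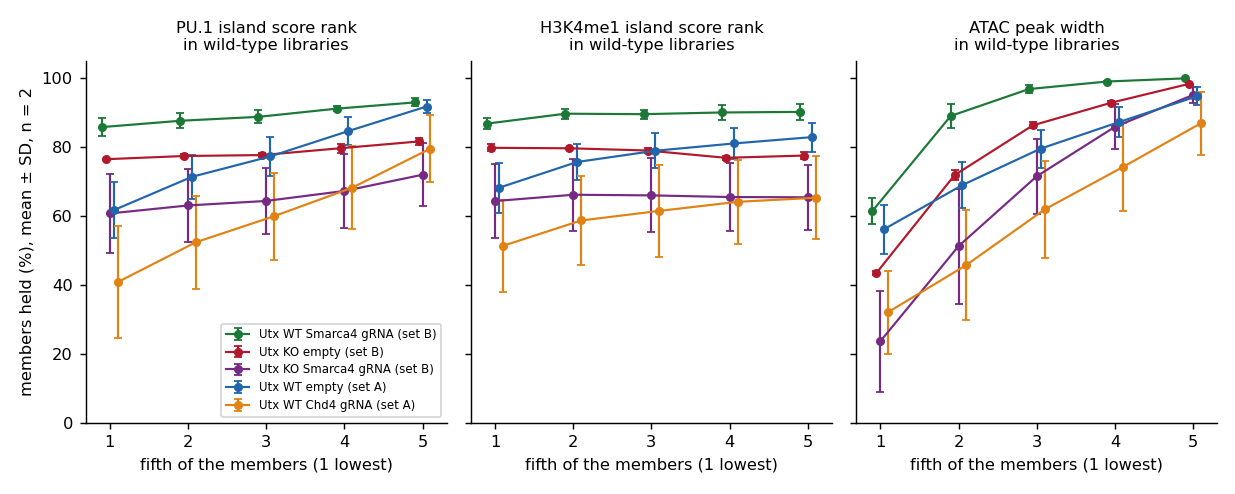
Mean share of the sites held (%, ± SD of 2 libraries, vertical axis) in 5 ATAC groups, in 5 equal bands of the sites (horizontal axis, 1 lowest) ranked by PU.1 island score, H3K4me1 island score or ATAC width in the wild-type libraries. PU.1 rank separates the bands in set A (40.8% to 79.6% with the Chd4 gRNA) more than in set B, H3K4me1 rank changes little in set B, and width separates them in every group.

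Sites that touched a start window were held more often than the rest: 92.6% against 77.3% in Utx KO empty vector, 88.9% against 63.5% in Utx KO with the Smarca4 gRNA and 80.8% against 58.4% with the Chd4 gRNA. They were also wider (median 1059 against 576 bp). Of windows inside the sites, 747 lay in sites held by all 15 libraries, and 43 of those had the PU.1 word.

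By nearest protein-coding gene, the sites spread over 6011 genes, of which 2971 had 1 site and 152 had 10 or more, 1941 sites in all. The 8 genes with most sites were Pde4d (28), which degrades cyclic AMP, Gse1 (26), Runx1 (26), a master factor of blood stem cells, Id2 (22), an inhibitor of helix-loop-helix factors, Zmiz1 (22), a transcriptional co-regulator, Rreb1 (21), a Ras-responsive zinc finger factor, Mtss1 (20) and Tbc1d1 (19). All 15 libraries outside the rule held 13 sites at Gse1, 11 at Runx1 and 10 at Pde4d, but 3 at Mtss1 and 5 at Tbc1d1. Long genes and gene deserts collect more sites by the nearest-gene rule, and no link between a site and a gene's expression was measured.

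Losses in Utx KO were spread, and a few genes held several. At Cmip 8 of 18 sites were lost with empty vector, at Gramd1b, which encodes a sterol transfer protein, 7 of 18, and at Fyn, which encodes a Src family kinase, 7 of 10, against 17.2% of all sites. Between cells with the Smarca4 gRNA the same genes lost 3 of 13, 7 of 15 and 4 of 8 testable sites, against 16.4% of all. At Zmiz1 these were 4 of 22 and 8 of 20. Between the wild-type controls of the 2 sets, Cmip lost 0 of 18 sites, Gramd1b 3 of 18, Fyn 7 of 10 and Zmiz1 4 of 22. All sites lost 17.1% there, so the loss at Fyn was as large between wild-type controls as in Utx KO. Chosen after their values were seen, Zmiz1 and Gramd1b each had 4 of the 549 sites open in 6 Utx WT and no Utx KO library, and Litaf, Ppp3ca (calcineurin's catalytic subunit), Os9 and Plxnc1 had 3 each. At Os9, all 5 testable sites were lost between cells with the Smarca4 gRNA.

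With the remodeller gRNAs, losses per gene were few, and the genes named are those with most losses by rule. The Smarca4 gRNA in Utx WT, which closed 6.32% of all sites, closed 4 of 11 sites at Irs2 (an insulin receptor substrate), 4 of 26 at Gse1 and 3 of 5 at Fam160b1. In Utx KO, where 7.57% of all testable sites were lost, it closed 4 of 5 at Zfp36l1, which encodes an mRNA decay factor, 3 of 6 at Ankrd11 and 3 of 7 at Irs2. None of the 5 sites at Zfp36l1 was lost by Utx KO or by the gRNA in Utx WT. The Chd4 gRNA, with 8.69% of all testable sites lost, closed 5 of 20 at Pde4d, 4 of 7 at Fam107b and 3 of 5 at Chd2, a relative of Chd4. Between the wild-type controls of the 2 sets, Irs2 lost 6 of 11 sites, Gse1 7 of 26 and Fam160b1 4 of 5, against 17.1% of all. In the same comparison Zfp36l1 lost 1 of 5, Ankrd11 2 of 8, Pde4d 4 of 28, Fam107b 1 of 8 and Chd2 1 of 6.

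The genes with most lost marks were others. Against 1.04% of all sites, PU.1 was lost at 2 of 7 sites at Ldlrad3, 2 of 9 at Niban2 and 2 of 16 at Nol4l, and, against 3.61% of all sites, H3K4me1 at 3 of 3 at Ankrd50, 3 of 7 at Gask1b and 3 of 10 at Ttc28. Of the study's targets and factors, Smarca4 and Chd4 had 1 site each, Spi1 had 2, Gata2 had 3 and Gata1, which lies on the X chromosome, had none by the autosomal rule. The site at Smarca4 was lost with the Smarca4 gRNA in Utx KO and held in Utx WT, and none of the sites at Spi1 and Gata2 was lost in a Utx KO comparison. These sites are not the cut sites of the guides, so they do not check editing.

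Marker lists of the labelled cells and of others were counted by nearest gene. Of all autosomal genes, 29.1% had a site. Stem cell genes had 63.6% (14 of 22 genes, 71 sites), monocyte and macrophage genes 65.2% (15 of 23, 37 sites), megakaryocyte genes 61.9% (13 of 21, 50 sites), mast cell and basophil genes 56.3% (9 of 16), erythroid genes 44.4% (8 of 18) and granulocyte genes 42.9% (9 of 21). B cell genes had 29.4% (5 of 17), T and NK cell genes 35% (7 of 20), stroma and endothelium genes 56.3% (9 of 16) and housekeeping genes 22.2% (4 of 18). The stroma and endothelium list had 37 sites, of which 11 lay at Runx2 and 7 at Pecam1, genes also expressed in blood cells. Its other genes were not looked at in this way. The part of other cells in these lists was not tested.

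Losses in Utx KO with empty vector ranged over these lists from 5% at housekeeping genes to 18.9% at stroma and endothelium genes, against 17.2% of all sites. They were 8 of 71 at stem cell genes, 6 of 37 at monocyte and macrophage genes, 6 of 50 at megakaryocyte genes, 4 of 34 at mast cell and basophil genes, 1 of 18 at erythroid genes, 3 of 16 at granulocyte genes, 1 of 12 at B cell genes, 2 of 17 at T and NK cell genes, 7 of 37 at stroma and endothelium genes and 1 of 20 at housekeeping genes. The study's title names ETS and GATA programs. ETS family genes had a site at 73.3% (11 of 15 genes) and lost 5 of 38, and GATA partner genes at 69.2% (9 of 13 genes) and lost 14 of 87. At Etv6 2 of 17 sites were lost, at Fli1 3 of 17, at Erg 2 of 13, at Elf1 3 of 10 and at Ets1 0 of 7. Runx1 lost 3 of 26, Id2 3 of 22 and Ikzf1, a lymphoid zinc finger factor, 1 of 12.

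At single lineage genes the counts of lost sites were small and are given with no test beside the 17.2% lost over all sites in Utx KO with empty vector. Ly86, a partner of a Toll-like receptor homologue, lost 2 of 13 in that comparison, and the chemokine receptor gene Ccr2 and the cytokine receptor gene Csf2ra 0 of 3 each. The integrin gene Itgb2 lost 0 of 4 in Utx KO, but 2 of 4 with the Smarca4 gRNA in Utx KO. Meis1, a stem cell homeobox gene, lost 0 of 9, Nfe2, an erythroid and megakaryocyte factor, 0 of 4, Angpt1 0 of 7, Cd200r3 0 of 9, with 7 held in all 15 libraries, and Mitf, the master factor of mast cells, 1 of 7. Pecam1 lost 3 of 7, and 4 of 7 between the wild-type controls of the 2 sets.

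Single sites show the range. Of sites held in all 22 libraries, the highest PU.1 rank belonged to a ribosomal RNA copy, whose reads cannot be assigned to 1 locus. On chr17:39842954-39848940 the site overlapped Rn18s-rs5, a pseudogene copy of the small-subunit ribosomal RNA (chr17:39846354-39848202), had PU.1 scores of 7900, 7112 and 6882 in Utx WT and 8025, 6718 and 7585 in Utx KO, H3K4me1 scores of 2687 and 3166 in Utx WT and 4081 and 3935 in Utx KO, and peak widths from 5910 to 5988 bp in all 12 ATAC libraries. On chr14:19415699-19419700, the next by rank, in no gene of the RefSeq table, PU.1 scores were 6520, 6429 and 6151 in Utx WT and 6796, 6795 and 6791 in Utx KO, with widths from 3994 to 4052 bp. Its width thus hardly varied between libraries, like that of the ribosomal RNA copy. Regions of repeated sequence were not filtered out, and whether the signal at this site reflects PU.1 binding was not tested. The third, in Mob3a (chr10:80692093-80693166), had PU.1 scores of 2478, 2733 and 3031 in Utx WT and 2973, 2338 and 2715 in Utx KO. The score is the authors' whole number per island, with no scale known to be shared between lists, so scores of separate libraries are printed as values and not compared.

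The widest site closed in Utx KO lay on chr6:30172722-30174474, 19264 bp from Nrf1, over the start of the lncRNA Mirc35hg whose sequence is given above. Its peak was 908 and 1671 bp wide in set B wild-type empty vector, 553 and 1063 bp with the Smarca4 gRNA in Utx WT, and 227 and 497 bp in set A empty vector, and it was absent from all 4 Utx KO libraries. With the Chd4 gRNA it was 348 bp wide in the first library and absent from the second. PU.1 scores were 149, 150 and 274 in Utx WT and 171, 247 and 320 in Utx KO, and H3K4me1 scores 470 and 615 against 418 and 552. Both marks were thus listed in every library of both genotypes.

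The next widest, on chr14:73444747-73446149, lay 59458 bp from Itm2b, with wild-type widths of 1183 and 1213 bp, 1320 and 1419 bp with the Smarca4 gRNA, and no peak in any Utx KO library. PU.1 scores were 194, 217 and 267 in Utx WT and 327, 210 and 288 in Utx KO. The following site, inside Akap13 (chr7:75609433-75610798), had widths of 1142 and 1244 bp, 1180 and 850 bp with the Smarca4 gRNA and 451 and 266 bp in set A empty vector. It was closed in all 4 Utx KO libraries and in both Chd4 gRNA libraries, with PU.1 scores of 686, 1065 and 1084 in Utx WT and 899, 714 and 854 in Utx KO.

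Of the 14 sites that the Smarca4 gRNA reopened in Utx KO, the 3 widest in wild type lay near Dyrk1a (chr16:94698256-94699283), near Dlx6 (chr6:6860138-6861493) and inside Tfeb, a factor of lysosome genes (chr17:47768563-47769149). The Tfeb site was 587 and 374 bp wide in Utx WT, absent from both Utx KO empty-vector libraries, 422 and 200 bp with the gRNA in Utx KO and 570 to 682 bp in set A. Of the 9 sites open with the Chd4 gRNA but not in its control, the 3 widest lay near Hs6st1 (chr1:35889795-35891061), inside Plekho1 (chr3:95993790-95995130) and inside Bbs9 (chr9:22814329-22815443). The Bbs9 site was 452 and 414 bp wide with the Chd4 gRNA, absent from set A empty vector and 982 and 1115 bp wide in set B empty vector.

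The least held sites were short. Sites inside Sp100, a nuclear body protein gene (chr1:85664170-85664577), and inside Ide, the insulin-degrading enzyme gene (chr19:37290969-37291248), were held by none of the 15 libraries. The Sp100 site had wild-type widths of 285 and 281 bp and PU.1 scores of 54, 49 and 65. A site inside the T cell receptor chain gene Cd247 (chr1:165853703-165854081) was held by 1 library, Utx KO empty vector, and lost both marks in Utx KO from H3K4me1 scores of 436 and 745 and PU.1 scores of 92, 133 and 90.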

How the data were processed

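Peak lists of 22 samples were used; 2 input samples entered no comparison. Per the submitters' processing notes, Bowtie2, Bowtie, SICER and MACS2 were used with mm10 (set A: Bowtie and MACS2 only), without roles or versions. The deposited ChIP lists give islands on a 200 bp grid with a whole-number score whose meaning is not given in the sources used here. It was used only to rank islands within a list. The ATAC lists the authors deposited hold start and end alone, so width stands in for height and depth is unknown.

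The members, gene lists and tests were chosen with earlier results of these data known. Peaks were merged where they overlapped or touched. Exact permutation tests over libraries (two-sided) compared shares held, with Benjamini-Hochberg adjustment, and counts of lost sites carry no test. Genes were assigned by the nearest of 21900 protein-coding spans of GRCm38.p6. Of 229 genes in 12 lists, 227 were matched. Named genes were the 8 with most sites, the 3 with most losses per comparison, the 3 with most sites per list, and the targets and factors Smarca4, Chd4, Spi1, Gata1 and Gata2. Single sites were named by rank, width or number of libraries. The motif search planned around site centres was not run, as no genome was used, and start windows replaced it.

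Alternatives were 50% cover, 5 kb from gene ends, PU.1 in 2 of 3 lists, the upper 50% of lists, lists of equal length (24833 ATAC peaks), strata of width, pairing by number, and each library left out. Cut lists kept the widest ATAC peaks or the highest-scoring islands, and the sites were chosen again from them. The code was tested on simulated data. Scripts ran in Python 3.11.15 with scipy 1.17.1, numpy 2.4.6, pandas 2.3.3 and, for plots, matplotlib 3.10.9.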

Additional observations from a re-analysis of the deposited data

How the results depend on the processing

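The files hold no read counts, so depth is unknown, and the smallest p of 2 against 2 libraries is 0.333. Holding needs 1 shared base and says nothing of signal strength. The cause of each shift below was not tested.

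The number of sites was 5432 in the upper 50% of each list and 7049 at equal list length. The excess over PU.1 only sites was 1.99 points with 50% cover (p = 0.432, exact permutation), 4.43 in the upper 50%, 6.52 at equal length and 1.77 within width strata. The Chd4 gRNA's change of the sites minus that of PU.1 only turned to -2.14, -3.59, -4.98 and -1.37 points under these 4 settings. Minus that of H3K4me1 only it turned to -5.90, -2.81, -1.93 and -0.103, to -0.58 with PU.1 in at least 2 of 3 lists, and to -0.408 without sites touching a start window, an alternative chosen after seeing the data. The H3K4me1 gradient was 5.30 points with 50% cover, 4.03 in the upper 50%, 4.08 at equal length and 0.50 within 5 bands of width. The width gradient was 37.2 points with 50% cover and 28.3 at equal length. The share held changed at equal length by -4.06 (Smarca4 gRNA in Utx KO), -10.9 (Utx KO with the Smarca4 gRNA) and -0.674 points (Chd4 gRNA). With 50% cover, 14.03% were lost with the Chd4 gRNA and 8.56% were open in 6 Utx WT and no Utx KO library. In the upper 50%, 5.76% lost H3K4me1. At equal length the lost shares were 10.4% (Utx KO), 3.63% and 2.83% (Smarca4 gRNA in Utx WT and Utx KO), 8.29% (Utx KO with the Smarca4 gRNA), 2.63% (Chd4 gRNA) and 1.94% (H3K4me1), and 3.15% were open in 6 Utx WT and no Utx KO library.

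The peak calls of same-numbered libraries, as deviations from their group mean, had correlations over sites from -0.038 to 0.060. Yes-or-no calls from 2 or 3 libraries a group cannot decide whether the numbers pair them, which the labels do not state. With the replicate block, lost shares were means over pairs: 10.7% and 18.99% for the Smarca4 gRNA in Utx WT and Utx KO, 27.8% for Utx KO with the Smarca4 gRNA, 24.1% for the Chd4 gRNA, 3.60% for PU.1 and 6.89% for H3K4me1. The 3 share differences kept their values in the replicate block, with p = 0.5 (exact permutation, the smallest for 2 pairs).

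Leaving out each library in turn, lost shares ranged from 6.34% to 11.98% for the Smarca4 gRNA in Utx WT, 7.56% to 22.8% in Utx KO, 16.2% to 32.2% for Utx KO with the Smarca4 gRNA, 8.74% to 30.04% for the Chd4 gRNA, 17.3% to 26.4% between sets, 1.05% to 2.15% for PU.1 and 3.66% to 8.82% for H3K4me1. The change against H3K4me1 only with the Chd4 gRNA ranged from -2.85 to 3.29 points, against PU.1 only from -0.726 to 4.42, and against PU.1 only for Utx KO with the Smarca4 gRNA from -4.21 to 1.37. The H3K4me1 gradient ranged from 4.99 to 7.91 points. The PU.1 gradient (15.7 to 20.04) and the excess over H3K4me1 only (19.7 to 23.9) and neither (24.0 to 30.9) kept direction and side of the threshold throughout. Outside these omissions, 33 of 41 values tested over 10 libraries kept direction and call and 8 missed the threshold. Of 84 from tests of 2 against 2, where no call could change, 10 reversed in sign. Of 82 with no test, 18 moved.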
